A study of Mus musculus with 6 samples.

Results

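Complement components that macrophages make themselves were followed in macrophages taken from mouse pancreatic tumours. The members are 7 genes chosen by symbol: C1qa, C1qb and C1qc, which encode the chains of C1q, C3, Cfb, Cfp and Cd55. Each symbol had 1 entry among the 53647 genes of the table, so all 7 were found. The tumours were pancreatic ductal adenocarcinomas implanted in the pancreas of C57BL/6 mice, and tumour macrophages were sorted into Cxcr4+ and Cxcr4- cells by the chemokine receptor Cxcr4. Both groups therefore came from tumour-bearing mice, with 3 libraries of total RNA each. The sort is the only difference between them that the labels give. The labels used here do not name the implanted cells or the age of the mice. They also do not say whether each library came from a mouse of its own, so every p-value refers to the spread among these 6 libraries, which may be technical.

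Complement is a cascade of blood and tissue proteins that marks surfaces for uptake by phagocytes. The classical pathway starts when C1q binds antibody or dying cells, the alternative pathway is driven by factor B and held together by properdin, and both meet at the cleavage of C3, whose larger fragment coats the target. The liver makes most of the complement in blood, but macrophages are a known local source of C1q, C3, factor B and properdin, and C1q is often used as a label of tumour macrophages. Cells protect themselves with surface regulators such as CD55, which takes apart the enzymes that cleave C3.

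Each library held 46444934 to 55740671 estimated counts. The 8 macrophage markers were all present, with a summed level of 7953 to 9740 FPKM (fragments scaled to gene length and library size) in the Cxcr4+ group and 7158 to 8341 in the Cxcr4- group. Of 13 genes listed for resident macrophages, Timd4, Cd163 and Vsig4, the last of which encodes a complement receptor, were listed at 0 in every library. Cxcr4 RNA itself averaged 9.27 FPKM in Cxcr4+ and 7.42 in Cxcr4- libraries, and its log2 fold change of 0.27 did not pass (adjusted p = 0.999 by edgeR). Cxcr4+ replicate 1 stood apart in fibroblast and matrix genes, with a summed 35.7 FPKM against 4.16 to 9.25 in the other 5 libraries. In these bulk libraries, fewer cells of a type and less RNA per cell cannot be told apart.

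The members spanned a wide range of levels. Over all 6 libraries Cfp averaged 34.4 ± 5.10 FPKM (SD, n = 6), C3 7.90 ± 1.40 and Cfb 1.81 ± 0.423, and the ranges of these 3 genes over the libraries did not overlap. C1qb at 0.321 ± 0.462 FPKM, C1qa at 0.232 ± 0.187 and C1qc at 0.140 ± 0.238 could not be ordered beyond their spread, and Cd55 was last at 0.0112 ± 0.0130. The alternative pathway genes were thus the measurable ones, and the C1q chains, each under 1 FPKM in all libraries but 1, lay close to the detection floor. Cfp made up 74.0 to 80.0% of the summed FPKM of the 7 members in a library.

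In edgeR's quasi-likelihood test of Cxcr4+ minus Cxcr4-, 5 of the 7 members passed the low-count filter and 0 of these 5 had an adjusted p under 0.05, where 0.0312% of the 16031 genes tested did. At an unadjusted p under 0.05 there were 3 (C3, C1qa and C1qb), beside 4.85% of all genes, and DESeq2 and limma also called 0. C1qa and C1qb passed the filter through their Cxcr4+ libraries alone, so their difference is partly set by the filter. C1qc and Cd55 were not tested. Groups did not overlap for 10.4% of all genes tested.

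Cfp encodes properdin, the plasma protein that stabilises the C3-cleaving enzyme of the alternative pathway and is released by myeloid cells. It had 40.5, 30.7 and 37.6 FPKM in Cxcr4+ replicates 1, 2 and 3 and 38.3, 27.3 and 32.3 in the Cxcr4- replicates. The groups overlapped, with means of 36.3 ± 5.01 (SD, n = 3) and 32.6 ± 5.49 (n = 3). Its log2 fold change of 0.15 had an SE of 0.19 (adjusted p = 0.9997 by edgeR), and an exact two-sided permutation of the FPKM values gave p = 0.5. The lowest library of both groups was replicate 2. With 2646 to 4431 counts in a library, depth was not what limited this comparison. In GRCm39, the build of the table, Cfp occupies 20791693 to 20797794 of chromosome X, reverse strand.

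C3, the central component that all pathways cleave, was the member whose levels separated the groups in the downward direction. It had 7.49, 6.15 and 6.84 FPKM in the Cxcr4+ replicates and 9.93, 7.94 and 9.07 in the Cxcr4- replicates. Every Cxcr4+ library lay below every Cxcr4- library, as in 4.87% of all genes tested, with means of 6.83 ± 0.670 (SD, n = 3) and 8.98 ± 0.996 (n = 3). The ratio of means was 0.760 and the log2 fold change -0.40 (SE 0.15, unadjusted p = 0.0298, adjusted p = 0.998 by edgeR), so the difference did not pass over all genes. An exact two-sided permutation of the FPKM values gave p = 0.1, the lowest value possible with 3 libraries a group. The size of the fold change was at percentile 80.2 among genes tested. C3 had 1856 to 2899 counts in a library. It occupies 57510970 to 57535136 of chromosome 17, reverse strand, with the miRNA gene Mir6978 (0 to 1 counts) inside it.

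**Figure D1:**
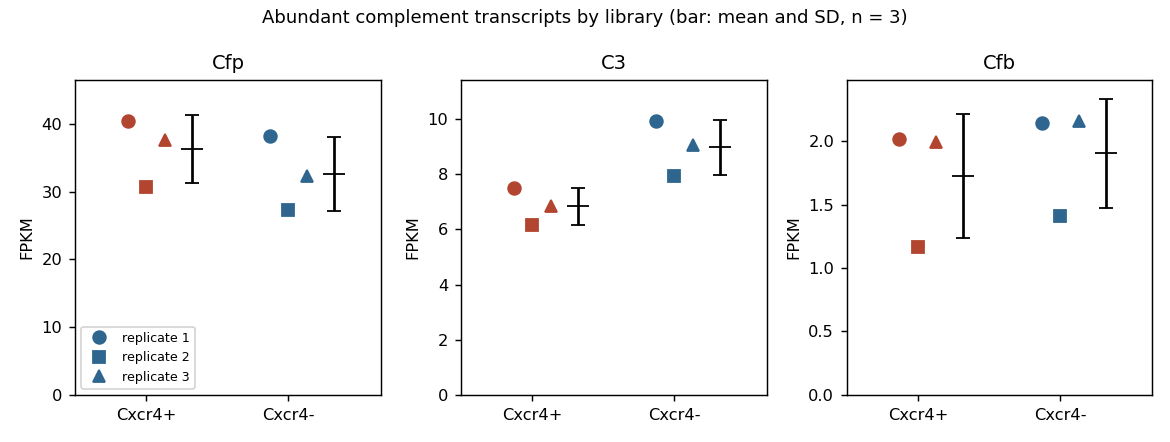
FPKM of Cfp, C3 and Cfb in each library, by group and replicate, with the mean and SD of 3 libraries beside the points. For C3 the Cxcr4+ libraries sit at 6.15 to 7.49 and the Cxcr4- libraries at 7.94 to 9.93, while Cfp and Cfb overlap between the groups, and replicate 2 is the lowest library of its group in all 3 panels.

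Epithelial cells also make C3. The 14 markers of tumour and ductal epithelium summed to 1.96 to 3.54 FPKM in the Cxcr4+ group and 3.83 to 6.83 in the Cxcr4- group, also without overlap, and 10 of the 10 that were tested had a negative log2 fold change. Among the Cxcr4- libraries, replicate 1 had the highest C3 and the lowest epithelial sum. Tff1 was listed at 0, and the part of these cells in the C3 values was not tested.

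The stretch before the gene's start is shown for C3 because its level parted the groups. The 250 bases are from RefSeq, build GRCm38.p6, chr17:57228137-57228386, reverse strand, in transcript direction and ending at the base before the start. Capitals mark matches on either strand to TTGCNNAAT, a C/EBP-type motif, and to an NF-kappaB-type motif, GGG and CC with 5 bases of any kind between them, or its narrower form, GGGA and CC with 4 bases between them.

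C3 promoter: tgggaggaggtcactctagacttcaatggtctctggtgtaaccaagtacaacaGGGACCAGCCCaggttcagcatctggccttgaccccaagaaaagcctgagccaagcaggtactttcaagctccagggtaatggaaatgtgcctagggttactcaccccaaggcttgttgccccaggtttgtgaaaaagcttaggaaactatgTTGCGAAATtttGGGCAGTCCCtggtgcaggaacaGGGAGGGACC

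C/EBP and NF-kappaB factors switch on acute-phase and inflammatory genes. The single TTGCNNAAT match, TTGCGAAAT, began 45 bases before the start, and 2.11% of the 32851 windows of this length in the table hold one. The NF-kappaB-type matches began 197, 196, 33 and 10 bases before the start, and the first 2 overlap each other. The wider form is in 45.8% of windows and the narrower in 17.6%. A match describes letters and is not evidence of binding.

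Cfb encodes factor B, the protease that gives the alternative pathway enzyme its cutting activity. It had 2.02, 1.16 and 1.995 FPKM in the Cxcr4+ replicates and 2.14, 1.41 and 2.16 in the Cxcr4- replicates. Both groups held a low replicate 2 and the ranges overlapped, with means of 1.73 ± 0.488 (SD, n = 3) and 1.90 ± 0.430 (n = 3). Its log2 fold change of -0.14 had an SE of 0.31 (adjusted p = 0.9997 by edgeR), and the exact permutation of FPKM gave a two-sided p = 0.5. Without Cxcr4+ replicate 2 the log2 fold change was 0.10, so the direction rests on that library. Cfb occupies 35075350 to 35081494 of chromosome 17, reverse strand, 85 bases from C2. It overlaps the predicted gene Gm20547 (0 to 10 counts in a library) and Mir6972 (0 to 4 counts), so a few of its 194 to 362 counts could be split between entries.

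Cfp, C3 and Cfb shared a feature across libraries: replicate 2 was the lowest of its group for all 3 genes in both groups, as it was for 14.0% of all genes tested. Replicate 2 was the highest of both groups for 34.0% of genes, so these members stood on the less common side of that pattern. The Cfp to C3 ratio in FPKM was 5.40, 4.997 and 5.50 in the Cxcr4+ replicates and 3.85, 3.44 and 3.56 in the Cxcr4- replicates. Cfp was thus higher relative to C3 in every Cxcr4+ library than in any Cxcr4- library. C3 alone already parted the groups, so this ratio is not a separate result, and no share over other gene pairs was computed. The ratio of C3 to Cfb overlapped, at 3.43 to 5.29 in the Cxcr4+ group and 4.20 to 5.65 in the Cxcr4- group.

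Genes with the most similar profile were looked for by Pearson correlation of log2(FPKM + 1) over the 6 libraries, among genes of at least 5 FPKM on average. For Cfp these were Ythdf3, a reader of methylated adenosine in RNA (r = 0.995), and Arhgap10, a GTPase-activating protein (r = 0.989), with 24 of 5761 genes at 0.95 or more. For C3 they were Ndrg1, a stress-responsive gene (r = 0.993), and St14, the membrane protease matriptase (r = 0.987), with 18 of 5761. The size of a change does not enter r. Ndrg1 ran only from 61.3 to 65.8 FPKM and St14 from 23.7 to 29.7, where C3 ran from 6.15 to 9.93. For Cfb they were Zfp36l2, an RNA-binding protein that shortens mRNA life (r = 0.995), and Bhlhe40, a transcriptional repressor (r = 0.995), with 111 of 5762. These are descriptions over 6 libraries that share the sort and the replicate 2 pattern.

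The C1q chain genes pointed the other way from C3, at levels where single fragments count. Low counts in the table cluster at multiples of 4, at 43.2% of counts from 1 to 20. On that ground 4 counts were assumed to be about 1 fragment, and 3 fragments, or 12 counts, were taken as the floor. C1qa, the A chain, had 29, 25 and 23 counts in the Cxcr4+ replicates and 0, 4 and 8 in the Cxcr4- replicates. All Cxcr4+ libraries were above the floor and all Cxcr4- libraries below it. In FPKM this was 0.435, 0.393 and 0.361 against 0, 0.0648 and 0.137, with means of 0.396 ± 0.0372 (SD, n = 3) and 0.0671 ± 0.0683 (n = 3).

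C1qb, the B chain, had 84, 27 and 12 counts in the Cxcr4+ replicates and 4, 4 and 0 in the Cxcr4- replicates. The groups did not overlap, but Cxcr4+ replicate 3 was at the floor itself and replicate 1 held most of the signal. The FPKM values were 1.22, 0.412 and 0.176 against 0.0609, 0.0619 and 0. C1qc, the C chain, had 76, 19 and 4 counts against 0, 4 and 0, or 0.611, 0.163 and 0.0331 against 0, 0.0341 and 0 FPKM. Here the groups overlapped, because Cxcr4+ replicate 3 had 4 counts, as did Cxcr4- replicate 2.

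**Figure D2:**
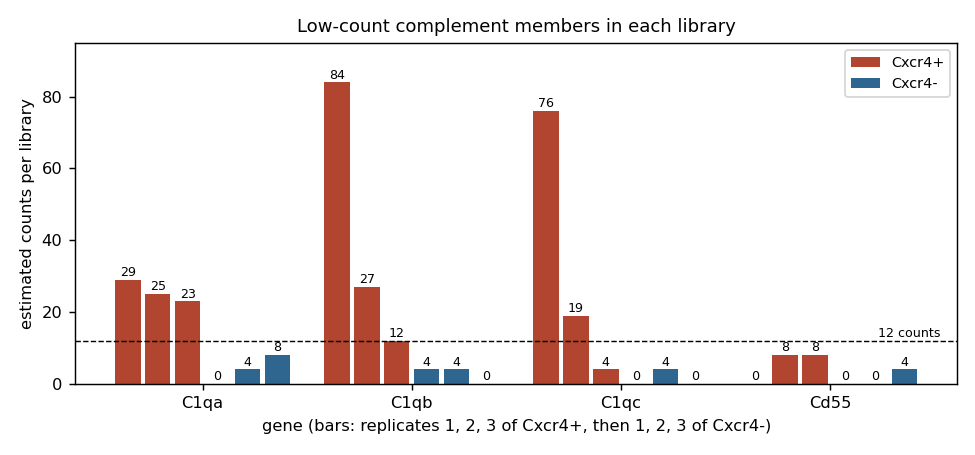
Estimated counts of C1qa, C1qb, C1qc and Cd55 in each library, with bars for replicates 1, 2 and 3 of Cxcr4+ and then of Cxcr4-, and a dashed line at the floor of 12 counts. C1qa is even across the Cxcr4+ libraries at 23 to 29 counts, C1qb and C1qc are highest in Cxcr4+ replicate 1 at 84 and 76, and no Cxcr4- bar passes 8.

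Counted as fragments summed over libraries, C1qa had 19 against 3, a ratio of 5.77 after scaling to library totals with an exact 95% counting interval of 1.70 to 30.4. C1qb had 31 against 2 fragments (ratio 14.1, interval 3.59 to 122) and C1qc 25 against 1 (ratio 22.8, interval 3.73 to 935). These intervals take 4 counts as 1 fragment and cover counting error only, not the spread between libraries. In edgeR the log2 fold changes were 2.49 (SE 0.98, unadjusted p = 0.0364, adjusted p = 0.998) for C1qa and 3.75 (SE 1.08, unadjusted p = 0.00928, adjusted p = 0.953) for C1qb. Exact two-sided permutations of FPKM gave p = 0.1 for C1qa and C1qb, the lowest possible, and p = 0.2 for C1qc. Groups did not overlap upward for 5.50% of all genes tested. C1qa and C1qb entered the test through their Cxcr4+ libraries alone, so these p-values are not independent support for a difference. Without Cxcr4+ replicate 1 the log2 fold change of C1qb was 2.71 and that of C1qa 2.41.

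The chains of C1q are assembled in equal numbers into 1 protein, but their RNA levels did not keep a fixed order. In Cxcr4+ replicate 1 C1qb was highest and C1qa lowest, in replicate 2 C1qb was highest and C1qc lowest, and in replicate 3 C1qa was highest and C1qc lowest. The step of 1 fragment was 0.0322 to 0.0683 FPKM for these genes, which is as large as several of the values compared. Summed over the chains, the FPKM was 2.26, 0.969 and 0.570 in the Cxcr4+ replicates and 0.0609, 0.161 and 0.137 in the Cxcr4- replicates. The C1q genes lie side by side on chromosome 4, reverse strand, C1qb at 136607440 to 136613498, C1qc at 136617115 to 136620376 and C1qa at 136623228 to 136626114, with 3616 and 2851 bases between neighbours.

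The promoter windows of C1qb and C1qc are shown because both genes had their highest level in the same library, Cxcr4+ replicate 1. C1qa was also highest there, but no promoter was available for it. They are 250 bases from RefSeq, build GRCm38.p6, chr4:136886201-136886450 and chr4:136892915-136893164, reverse strand, ending at the base before the start. Capitals mark matches to the NF-kappaB-type motifs given above and to GAGGAAGT, a core bound by the myeloid factor PU.1.

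C1qb promoter: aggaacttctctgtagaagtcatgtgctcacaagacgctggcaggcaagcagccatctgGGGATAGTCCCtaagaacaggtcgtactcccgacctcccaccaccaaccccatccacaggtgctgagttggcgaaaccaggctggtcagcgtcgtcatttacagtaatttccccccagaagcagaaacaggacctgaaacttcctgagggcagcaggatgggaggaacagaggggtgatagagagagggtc

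C1qc promoter: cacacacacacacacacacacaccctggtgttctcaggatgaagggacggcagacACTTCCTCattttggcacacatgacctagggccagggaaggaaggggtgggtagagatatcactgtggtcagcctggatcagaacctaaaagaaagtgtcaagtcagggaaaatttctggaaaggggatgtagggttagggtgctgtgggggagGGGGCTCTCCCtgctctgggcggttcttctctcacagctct

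In C1qc a reverse-strand match to GAGGAAGT began 195 bases before the start, and 2.44% of windows in the table hold this motif. C1qb had no match to it in this window. The capitals in C1qb are a pair of overlapping matches to the narrower NF-kappaB-type form, 1 on each strand, and those nearest the start in C1qc are overlapping matches to the wider form, 1 of which also fits the narrower form on the reverse strand. Neither window held TTGCNNAAT. An interferon-response pattern, GAAA and GAAA with 2 bases of any kind between them, is in 2.98% of windows and was in none of the C3, C1qb and C1qc windows.

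Markers of resident macrophages, the cells best known for C1q, were mostly low in these libraries. The list summed to 12.8 to 19.2 FPKM in the Cxcr4+ group and 14.2 to 18.3 in the Cxcr4- group, with overlap, and 5 of its 13 genes passed the filter, 3 with a positive and 2 with a negative log2 fold change. Apoe, the apolipoprotein of tissue macrophages, lay lower in every Cxcr4+ library, at 3.49, 3.87 and 3.56 FPKM against 4.76, 4.64 and 4.25 (log2 fold change -0.33, adjusted p = 0.998 by edgeR). Within the list, 2 untested genes, like Apoe named after their values were seen, were highest in Cxcr4+ replicate 1, as C1qa, C1qb and C1qc were. Mrc1, the mannose receptor, had 35, 12 and 8 counts in the Cxcr4+ replicates and 0, 8 and 0 in the Cxcr4- replicates. Ms4a7, a membrane protein of tissue macrophages, had 30, 12 and 4 counts against 0, 0 and 0. The fibroblast and matrix list was highest in Cxcr4+ replicate 1 as well, at 35.7 FPKM, with 7.09 and 9.25 in replicates 2 and 3 and 4.16 to 7.67 in the Cxcr4- libraries, and 15 of its 16 tested genes had a positive log2 fold change. Lum was listed at 0. The part of either list in the C1q values was not tested.

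**Figure D3:**
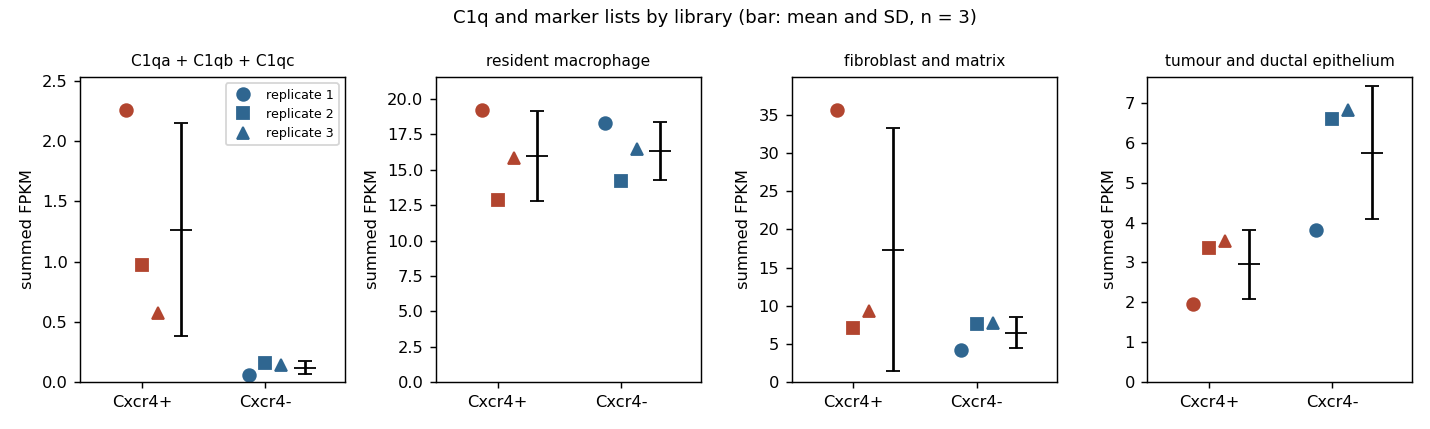
Summed FPKM of the C1q chains and of 3 marker lists in each library, by group and replicate, with the mean and SD of 3 libraries beside the points. The C1q sum is 0.570 to 2.26 in Cxcr4+ and at most 0.161 in Cxcr4- libraries, the fibroblast sum is highest in Cxcr4+ replicate 1 at 35.7, the resident macrophage sums overlap, and the epithelial sums are lower in every Cxcr4+ library.

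Cd55 encodes decay-accelerating factor, the surface regulator that disassembles C3-cleaving enzymes. It had 0, 8 and 8 counts in the Cxcr4+ replicates and 0, 0 and 4 in the Cxcr4- replicates, so no library passed the floor of 12 counts. No fold is given, since both groups lay under that floor, which corresponds to 0.0394 to 0.0444 FPKM for this gene. Its tandem copy Cd55b was listed at 0 in all libraries. Cd55 occupies 130366764 to 130390481 of chromosome 1, reverse strand, and the overlapping forward-strand entry Gm16083 was also listed at 0.

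The rest of the complement system was described through 5 lists of 68 further genes, of which 29 passed the filter and 0 had an adjusted p under 0.05 by edgeR. At an unadjusted p under 0.05 there were 2 of the 29, C1ra and Colec12, near the 4.85% of all genes tested, and DESeq2 and limma-trend on log2(FPKM + 1) also called 0. The groups did not overlap for C1ra and C2, which lay higher in Cxcr4+ libraries, and for Itgb2, which lay lower, 3 of 29 beside 10.4% of all genes tested. Over the 29 genes 16 log2 fold changes were positive and 13 negative with a median of 0.09, beside a median of 0.00 over all genes tested.

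Among classical and lectin pathway components, 9 of 16 were tested, 7 with a positive and 2 with a negative log2 fold change and a median of 0.29. C1ra, the protease that C1q activates first, had 2.98, 3.10 and 2.41 FPKM in the Cxcr4+ replicates and 1.96, 2.28 and 2.26 in the Cxcr4- replicates. The groups did not overlap and the log2 fold change of 0.38 had an SE of 0.15 (adjusted p = 0.998 by edgeR). Colec12, a scavenger-type collectin, had 8.78, 12.3 and 8.22 against 6.88, 8.39 and 6.87 FPKM, with overlap at 8.22 and 8.39 and a log2 fold change of 0.39 (SE 0.14, adjusted p = 0.998). Fcna, the lectin ficolin A, stood at 2.06 ± 0.433 against 1.94 ± 0.513 FPKM and Masp2, its partner protease, at 1.03 ± 0.189 against 1.32 ± 0.173 (SD, n = 3 per group). C2, the protease counterpart of factor B in the classical pathway and its neighbour in the genome, is named outside the naming rule, after its values were seen. It had 36, 36 and 47 counts against 11, 29 and 25 and a log2 fold change of 0.74 (SE 0.49, adjusted p = 0.999). The mannose-binding lectins Mbl1 and Mbl2 were listed at 0.

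The alternative and terminal list held almost no signal: 4 of 8 genes, Hc, C6, C7 and C8b, were listed at 0 in every library. Hc encodes C5, and the others form the membrane attack complex. C8g alone was tested, at 0.750 ± 0.271 against 0.818 ± 0.0950 FPKM (SD, n = 3 per group, log2 fold change -0.15). RNA for properdin, C3 and factor B was thus counted in every library, while Hc was listed at 0.

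Of 17 regulators 6 were tested and 6 were listed at 0, among them Cfi, the protease that inactivates cleaved C3. Cr1l, the rodent membrane regulator Crry, was the most abundant at 5.29 ± 0.654 against 5.72 ± 1.02 FPKM (SD, n = 3 per group), with a log2 fold change of -0.11 (SE 0.12). Its level lay below that of C3 and above that of Cd55 in every library. Cd59a, which blocks the membrane attack complex, had 1.71 ± 0.893 against 1.60 ± 0.301 FPKM. Clu, the secreted chaperone clusterin, had 1.49 ± 0.486 against 1.37 ± 0.562, and Serping1, the inhibitor of the C1 proteases, 0.338 ± 0.0357 against 0.244 ± 0.0903.

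Complement receptors and C1q-binding proteins were well covered, with 11 of 14 tested, 3 of them positive and 8 negative and a median log2 fold change of -0.04. Calr, the chaperone calreticulin that binds C1q on dying cells, had 395.5 ± 31.3 against 412 ± 13.1 FPKM (SD, n = 3 per group). C1qbp, a mitochondrial protein named for binding C1q, had 62.1 ± 3.38 against 62.0 ± 8.23. The subunits of complement receptor 3, which binds cleaved C3, were Itgb2 at 167 ± 7.19 against 190 ± 9.44 FPKM and Itgam at 70.2 ± 21.0 against 70.7 ± 13.5. Itgb2 had 164, 175 and 161 FPKM in the Cxcr4+ replicates and 201, 186 and 183 in the Cxcr4- replicates. As with C3, every Cxcr4+ library lay below every Cxcr4- library, at a log2 fold change of -0.20 (SE 0.09, adjusted p = 0.999 by edgeR).

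**Figure D4:**
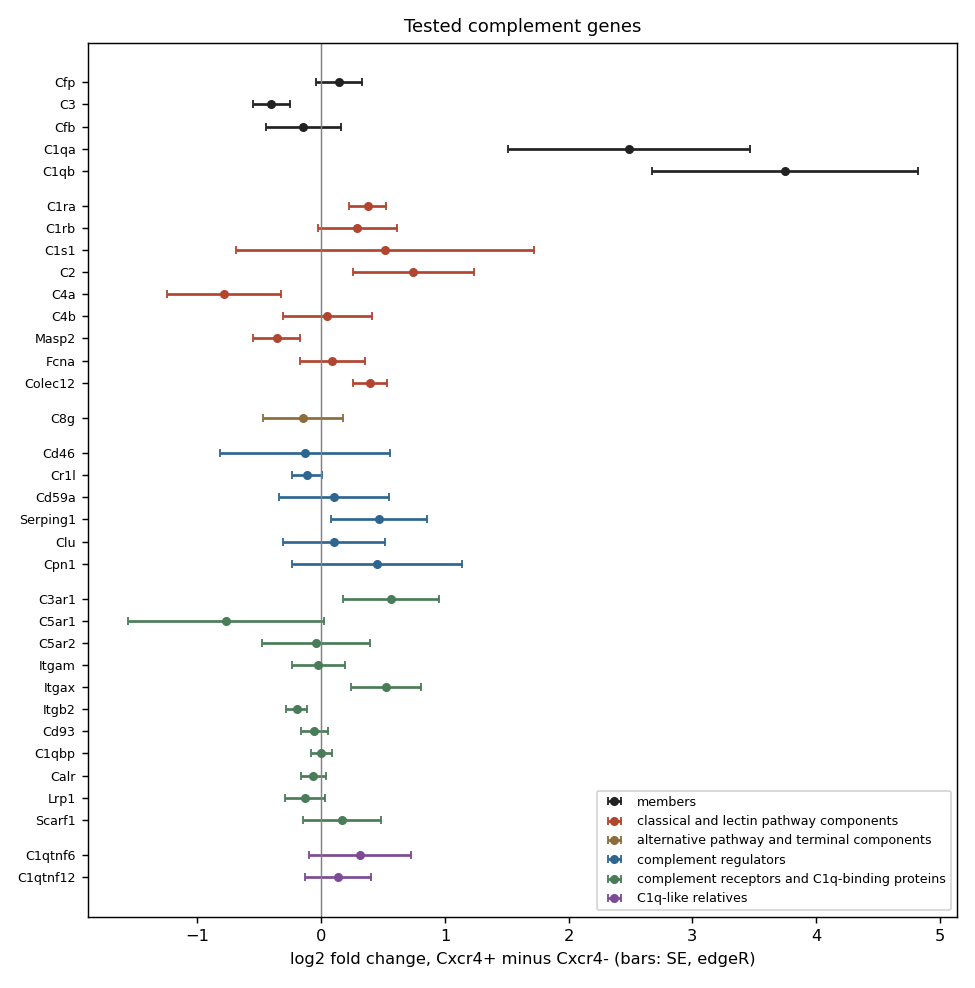
Log2 fold change, Cxcr4+ minus Cxcr4-, with its SE from edgeR for the 5 tested members and the 29 tested genes of the wider lists, coloured by list. Apart from C1qa and C1qb the genes lie within 1 of 0, C3 is at -0.40 with a small error, and C1qa and C1qb stand far to the right with wide errors at 2.49 and 3.75, on at most 29 and 84 counts in a library.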

How the data were processed

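RNA of 6 libraries, 3 per group, was analysed from 1 deposited table. The submitters' processing notes name cutadapt, HISAT2, StringTie and GRCm39. Versions, annotation release, counting settings and strand are not given there. The table holds estimated counts per gene, which the authors deposited as whole numbers, per the file headers. The authors also deposited FPKM, with a constant 0.0001 for a count of 0, taken as 0 here. Of counts from 1 to 20, 43.2% were multiples of 4.

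The count test was edgeR 4.0.16 (R 4.3.3): quasi-likelihood, earlier dispersion method, TMM factors, genes kept by filterByExpr at a minimum count of 10 and a minimum total of 15, and group as the only term. Benjamini-Hochberg adjustment ran over all 16031 genes kept. DESeq2 1.42.0, limma 3.58.1 and other settings served as alternatives. Counts were simulated for this comparison over 16031 genes, as independent libraries with no shared replicate pattern. There the edgeR test found 2 of 65 changes of 1.5-fold (3.08%), 25 of 62 of 2-fold (40.3%) and 45 of 65 of 4-fold (69.2%). It also made 13 false calls. Permutation p-values of the 7 members are unadjusted. Figures were drawn with matplotlib 3.10.9. Promoters matched 5 of the 7 members, without C1qa and Cfb. The members and all lists were chosen with earlier results of these data known. Named from each wider list were any gene past the threshold, the 4 of highest mean and the 1 of smallest p, and exceptions are stated.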

Additional observations from a re-analysis of the deposited data

How the results depend on the processing

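For C3 the direction and the lack of a call held under every alternative, and for Cfb under all but 1. C1qa and C1qb also kept both under every alternative that gave a value. They pass the filter through their Cxcr4+ libraries alone, so their direction is partly set by the filter. Cfp was not called under any alternative either, but its log2 fold change fell to 0.002 (SE 0.17) without Cxcr4- replicate 2. C3 had log2 fold changes of -0.52 to -0.29 when 1 library was left out and -0.41 to -0.24 otherwise, and Cfp 0.00 to 0.31 and 0.14 to 0.16. Cfb ran from -0.35 to 0.10 when 1 library was left out, the positive value being that without Cxcr4+ replicate 2. C1qa and C1qb gave 1.92 to 3.54 and 2.71 to 4.17 when 1 library was left out, and as little as 0.09 and 0.15 with limma-trend on log2(FPKM + 5), a pseudocount far above their level. They were not tested with counts divided by 4 or a mean of at least 50 counts. C1qc had 4.39 (adjusted p = 0.784 by edgeR) and Cd55 1.73 (adjusted p = 0.919) with no filter. When 1 library was left out, C1qc passed the filter in 4 of 6 fits, with 3.85 to 7.95. The highest was without Cxcr4- replicate 2, which leaves its other Cxcr4- libraries at 0. C1qc passed in those fits through its Cxcr4+ libraries alone as well. The number of genes called was 5 here, 65 by DESeq2, 2 and 1 by limma-trend on log2(FPKM + 1) and log2(FPKM + 5), and 1 to 9 when 1 library was left out; the cause was not tested.

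Under a replicate block 0 genes were called, and 1495 had an unadjusted p under 0.05 against 777 without it. C3 there had a log2 fold change of -0.40 (SE 0.06, unadjusted p = 0.0014, adjusted p = 0.363 by edgeR). Deviations of same-numbered libraries correlated at 0.04, 0.14 and 0.05, and not every library correlated best with its own number, so the numbers were not taken to pair the samples, although replicate 2 was the lowest or the highest of both groups for 14.0% and 34.0% of genes. Depth limits C1qa, C1qb, C1qc and Cd55, not Cfp or C3. At 4 counts a fragment, Cfb had 222 against 222 fragments, a ratio of 0.911 after scaling to library totals. Its exact 95% counting interval of 0.753 to 1.10 includes equal levels but covers counting error only. The edgeR SE of 0.31 for its log2 fold change also holds the spread between libraries. The share of depth in that SE was not tested.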

Other observations

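The receptors for the small fragments of C3 and C5, named here after their values were seen, varied between single libraries. C3ar1, the receptor for the C3 fragment, had 6.33, 2.93 and 5.51 FPKM in the Cxcr4+ replicates and 3.603, 1.99 and 4.37 in the Cxcr4- replicates, with overlap and a log2 fold change of 0.56 (adjusted p = 0.999 by edgeR). As for Cfp, C3 and Cfb, replicate 2 was the lowest library of both groups. C5ar1, the receptor for the C5 fragment, had 6.37, 10.6 and 0.526 FPKM against 7.67, 13.9 and 7.996, so that Cxcr4+ replicate 3 stood far below the other 5 libraries with 81 counts.

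Of 13 C1q-like relatives, secreted proteins that share the globular head of C1q, 4 were listed at 0 and 2 were tested. C1qtnf12, a secreted metabolic factor, had 1.86 ± 0.475 against 1.68 ± 0.300 FPKM (SD, n = 3 per group, log2 fold change 0.14), and C1qtnf6 0.464 ± 0.122 against 0.376 ± 0.194 (0.31). Their adjusted p was 0.9997 by edgeR.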
